A study of Mus musculus with 16 samples.

Results

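The genes of the cytosolic ribosome were followed through the brains of young and old mice with and without a mutation in the mitochondrial ribosome. The members were all protein-coding mouse genes whose symbol starts with *Rpl* or *Rps* and a number, together with *Rplp0*, *Rplp1*, *Rplp2* and *Rpsa*. Symbols that start with *Rps6k*, which are kinases, and symbols ending in -ps with a number were left out. This rule used no measured value and gave 86 of the 39179 gene identifiers of the count table. They comprise 49 genes of the large subunit, 3 genes of its P stalk, 33 genes of the small subunit and 1 gene that is no ribosomal protein. This last gene, *Rps19bp1*, encodes a nucleolar protein named for its binding to the ribosomal protein of *Rps19*. Of the 86 members, 82 had enough counts to be tested in every comparison.

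Brain RNA was sequenced from 16 mice, 4 each of wild-type and V338Y animals aged 3 months and 19 months. V338Y mice carry on both alleles a knock-in that changes valine to tyrosine in MRPS5, which belongs to the small subunit of the ribosome in mitochondria, and the wild-type mice carry none. The knock-in is present in every cell from conception and at the gene's own locus, no agent was given to any group, and the study dissected the cortex, although the extraction text of the labels names muscle. Mouse numbers 12 to 15 occur at both ages and name different animals.

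A ribosome consists of a small subunit, which reads the messenger RNA, and a large subunit, which joins the amino acids. Each subunit is ribosomal RNA clad in many proteins that are needed in equal numbers, and the P stalk of the large subunit recruits the factors that drive translation. Most of these messengers start with a C and a run of pyrimidines, the 5′ terminal oligopyrimidine tract, through which the kinase mTORC1 controls their translation. Ribosomal protein genes have also left many processed pseudogenes in the genome, which are copies of the messenger without introns.

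Each mouse gave between 6181448 and 19601664 counts. Levels are given as CPM, counts relative to library sizes scaled by TMM factors, which were between 0.954 and 1.04. The 10 neuron markers summed to between 6090 and 7031 CPM in every mouse. V338Y mouse 14 stood apart among the young mice, with the cerebellum marker *Gabra6* at 1.41 CPM against 59.9 to 173 CPM in the other 7. The libraries of the ages differed in more than age. The 4 Y-linked genes summed to between 242 and 288 CPM in each 3-month-old mouse and were at 0 in each 19-month-old mouse. *Xist* was between 0.444 and 1.2 CPM at 3 months and between 705 and 1183 CPM at 19 months. The methods describe all mice as female. The 9 cerebellum markers differed as well. Their sum was between 227 and 1827 CPM at 3 months and between 163 and 188 CPM at 19 months. Whether the young samples held more cerebellum was not tested. Age cannot be told apart from the differences in sex-linked transcripts and in cerebellum markers. Every change with age below carries all of them.

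Ribosomal protein messengers were abundant and uneven. Per kilobase of the principal transcript, the 82 tested members had a mean between 11.6 and 613 CPM per kb over the 16 mice, with a median of 135, and 57 of them were above 100. The highest were *Rplp1*, a P stalk protein, at 613 CPM per kb, and the small subunit genes *Rps29* at 560 and *Rps27* at 447. The lowest tested genes were *Rps27l* at 18.1, *Rpl7l1* at 15.4 and *Rps19bp1* at 11.6 CPM per kb. Among the members just below in that order, a level could hardly be measured. *Rpl3l*, a relative of *Rpl3* known from skeletal muscle and heart, had at most 21 counts in a mouse and 61 counts in all 16. *Rpl39l*, known from testis, had 13 counts in all, *Rps27rt* had 2 and *Rpl10l*, also known from testis, had 0. A total of 0 counts allows up to 3, for counting error only. The muscle-associated *Rpl3l* was thus at 0.194 CPM per kb.

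The annotated starts of the members carried the pyrimidine tract more often than the starts of other genes. A C followed by at least 4 pyrimidines (C or T) was sought on the gene's own strand exactly at the start, in the 300-base promoters of RefSeq on GRCm38.p6. Promoters were given for 66 of the 86 members, 78 promoters in all, of which 14 or 17.95% held the run at the start, whereas 2.51% of all 32851 promoters did. Between 10 bases before and 15 bases after the start, the shares were 60.3% and 34.9%. The windows below show members on which the results turn, 10 bases before and 20 bases from the start on, with the longest run that begins with C near the start in capitals.
Rps27 (chr3:90213629-90213658, minus strand): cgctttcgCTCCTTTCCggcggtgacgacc
Rps15a (chr7:118116128-118116157, minus strand): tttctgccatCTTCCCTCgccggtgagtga
Rps21 (chr2:180257369-180257398, plus strand): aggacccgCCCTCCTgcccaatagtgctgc
Rplp2 (chr7:141447641-141447670, plus strand): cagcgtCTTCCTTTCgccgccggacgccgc
Rplp0 (chr5:115559457-115559486, plus strand): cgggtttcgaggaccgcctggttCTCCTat
In *Rps15a* the run begins at the annotated start itself. In *Rps27*, *Rps21* and *Rplp2* it begins a few bases before and spans the start. In *Rplp0* the only run of this kind lies 13 bases into the transcript. Annotated starts can be some bases away from the start used in brain, so a missing run says only that these letters are not in the window.

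Many members share their sequence with other genes, and this bears on how their reads are counted. A median of 26.2% of the windows of read length in a member's principal transcript occurred unchanged in a transcript of another gene, and in 24 members at least as many windows did as did not. In all, 435 genes outside the members shared at least 10% of the 50-base windows of a member's coding sequence, and 420 of them were processed pseudogenes. Their counts were mostly small, under 1% of the sum of member and copies for 66 of the 82 tested members and above 5% for 5. The largest shares were those of *Rpl24*, whose copies and overlapping genes, mainly *Gm28037*, held 51% of the summed counts, and of *Rpl21* at 18%, mainly its copy *BC004004*. For these genes the level of the member rests on how reads were divided. *Rps27* shares 98.2% of its read-length windows with other genes and its coding sequence is identical to that of *Rps27rt*, yet *Rps27* had 32661 counts and *Rps27rt* had 2.

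Together the members held about 1% of all normalized counts. The sum was 1.08, 1.07, 1.02 and 1.04% in the 3-month-old wild-type mice 9 to 12 and 1.01, 1.05, 0.857 and 1.01% in the V338Y mice 13 to 16. At 19 months it was 1.09, 1.08, 1.1 and 1.09% in the wild-type mice 12 to 15 and 1.11, 1.1, 1.16 and 1.18% in the V338Y mice 17 to 20. V338Y mouse 15 was the lowest of all at 3 months, and the 19-month-old V338Y mice lay above all the 3-month-old mice of their genotype, with no overlap. The group means were 1.05% ± 0.027, 0.984% ± 0.086, 1.09% ± 0.0093 and 1.14% ± 0.038 (SD, n = 4 mice each, in the same order). Without the genes of the paralog pairs the means were 0.915%, 0.858%, 0.955% and 0.996%, in the same order of groups.

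**Figure D1:**
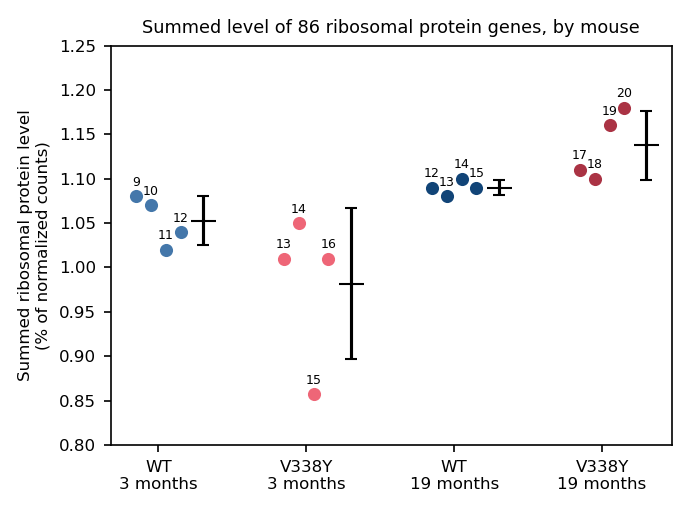
Summed level of the 86 members as a percent of the normalized counts of each mouse (vertical axis, which does not start at 0), by group; points are mice with their numbers, and the black marks are the mean ± SD of 4 mice. Mouse 15 of the 3-month-old V338Y group, at 0.857%, lies apart from the other 15 mice, which lie between 1.01 and 1.18%.

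The mouse that lay apart did so for nearly the whole family. V338Y mouse 15 had the lowest value of its group for 79 of the 82 tested members, and for 38.6% of all genes tested in every comparison. Among the 19-month-old V338Y mice, mouse 20 was the highest for 44 of the 82 members and mouse 19 for 23, against 26.7% and 22.5% of all genes. Among the 19-month-old wild-type mice no such mouse was seen, as each was the lowest for 16 to 25 of the members. The spread between mice of a group was small, with a median SD of 0.096 on the log2 scale over the members. It was widest for *Rpl29*, at 0.304, which was at 23.7, 46.1, 42.8 and 40.6 CPM in the 3-month-old wild-type mice and 43.7, 46.2, 37.3 and 24.9 CPM in the V338Y mice. Wild-type mouse 9 and V338Y mouse 16 thus had the lowest *Rpl29* levels of all 16 mice, and the summed level of its 28 copies, 1.48 and 2.85 CPM there, did not make up the difference.

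The balance of the subunits also shifted. The summed CPM of the small subunit members, divided by that of the large subunit and P stalk members, was 0.661 ± 0.016 in 3-month-old wild-type and 0.664 ± 0.006 in V338Y mice of that age, with overlapping ranges. In the old mice it was 0.697 ± 0.0074 (0.689 to 0.707) in wild-type and 0.719 ± 0.0095 (0.711 to 0.732) in V338Y mice (SD, n = 4 mice). All 19-month-old values were above the highest 3-month-old value of 0.682, and the genotypes did not overlap at 19 months. In this ratio within a library, scaling plays no part, although it cannot tell which subunit moved.

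With age, wild-type mice had more of some ribosomal protein messengers and less of others, by small amounts. Of the 82 members, 27 were called higher and 10 lower in the old mice, at an adjusted p below 0.05 from edgeR's quasi-likelihood test with Benjamini-Hochberg adjustment over all 16101 genes tested. Of all genes tested, 62.8% were called, 31.4% higher and 31.5% lower, so that the share of members that rose, 32.9%, was near the background and the share that fell, 12.2%, was below it. The groups of mice did not overlap for 19 members upward and 10 downward, against 26.9% and 28.6% of all genes. The median log2 fold change of the members was 0.05, against -0.005 for all genes tested. On library size only, both medians were lower, at -0.04 for the members and -0.097 for all genes, with 12 members higher and 21 lower, and with trends on length and GC content removed the members' median was 0.15, with 50 higher and 8 lower. In bulk tissue, fewer cells of a type and less RNA per cell cannot be told apart.

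The small subunit accounted for more of the rises than of the falls. Of its 32 tested members, 14 rose and 1 fell, with a median log2 fold change of 0.11. Of the 46 large subunit members, 11 rose and 7 fell, with a median of 0.01. The largest rise was in *Rpl30* (chr15:34440505-34443640), a protein of the large subunit. It was at 93.6, 97.2, 90.9 and 78.1 CPM in the 3-month-old and 120, 114, 113 and 113 CPM in the 19-month-old wild-type mice. Every old mouse was above every young one, a log2 fold change of 0.37 (SE 0.056, edgeR adjusted p = 1.4e-06). *Rps15*, a protein of the small subunit head, rose by a log2 fold change of 0.32, from 188, 180, 174 and 165 to 210, 225, 218 and 221 CPM. *Rps27*, with a zinc finger, and *Rpl31*, near the exit of the peptide tunnel, rose by 0.30 each. *Rplp1*, *Rpl13* and *Rps23* rose by 0.25, 0.22 and 0.22, all without overlap of the groups.

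Among the 10 that fell in wild-type mice was *Rps19bp1*, which is no ribosomal protein, with a log2 fold change of -0.69. The paralogs *Rpl22l1*, *Rpl7l1* and *Rpl36al*, described below, also fell. The others were *Rplp2*, the partner of *Rplp1* in the P stalk, at -0.24, *Rpl27* at -0.23, *Rps15a* and *Rpl15* at -0.18, *Rpl6* at -0.15 and *Rpl3*, which lies at the peptidyl transferase centre, at -0.14. *Rps19bp1* was at 15.3, 11.5, 10 and 11.8 CPM in the young and 6.61, 8.36, 7.59 and 6.76 CPM in the old wild-type mice, with no overlap. In wild-type mice the partners of the stalk moved apart. *Rplp1* went from 289, 290, 258 and 293 CPM to 309, 326, 350 and 354 CPM, while *Rplp2* went from 120, 119, 114 and 112 CPM to 98.9, 100, 100 and 88.3 CPM. The groups did not overlap for either gene. In V338Y mice *Rplp2* was not called with age. There it was at 101, 113, 94.4 and 118 CPM at 3 months and 106, 98, 123 and 115 CPM at 19 months.

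In V338Y mice the rise with age was broader. At 19 months 45 of the 82 members were higher and 5 lower than at 3 months (the same test and threshold), where 23.1% of all 16770 genes tested were higher and 25.7% lower. For 40 members upward and 4 downward the groups did not overlap, against 22.2% and 21.9% of all genes. The median log2 fold change was 0.19, against -0.029 for all genes, and 72 of the 82 members were positive. The median was between 0.13 and 0.24 under the other scalings, tests and filters, and 0.14 without mouse 15 of the 3-month-old group, with 39 members higher and 5 lower. Of the 32 small subunit members 23 rose and 0 fell, with a median of 0.25, and of the 46 large subunit members 21 rose and 3 fell, with a median of 0.14.

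*Rps27* (chr3:90212522-90213651) rose most in V338Y mice. It was at 134, 135, 112 and 137 CPM in the 3-month-old and 182, 169, 182 and 195 CPM in the 19-month-old mice. All old mice were above all young ones, with a log2 fold change of 0.48 (SE 0.067, edgeR adjusted p = 9.2e-05). *Rps12*, which lies in the head of the small subunit, rose by 0.47, from 130, 142, 120 and 154 to 182, 170, 204 and 206 CPM. *Rps21* rose by 0.43, *Rps14*, a protein of the small subunit platform, by 0.41, *Rpl31* by 0.39, *Rplp1* and *Rpl37* by 0.38 and *Rpl13* by 0.37. For *Rps21* the old mice 19 and 20, at 190 and 189 CPM, stood above mice 17 and 18, at 146 and 142 CPM. The 5 that fell were *Rps19bp1* at -0.42, *Rplp0* at -0.37, *Rpl22l1* at -0.33, *Rpl7l1* at -0.26 and *Rpl36al* at -0.23.

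**Figure D2:**
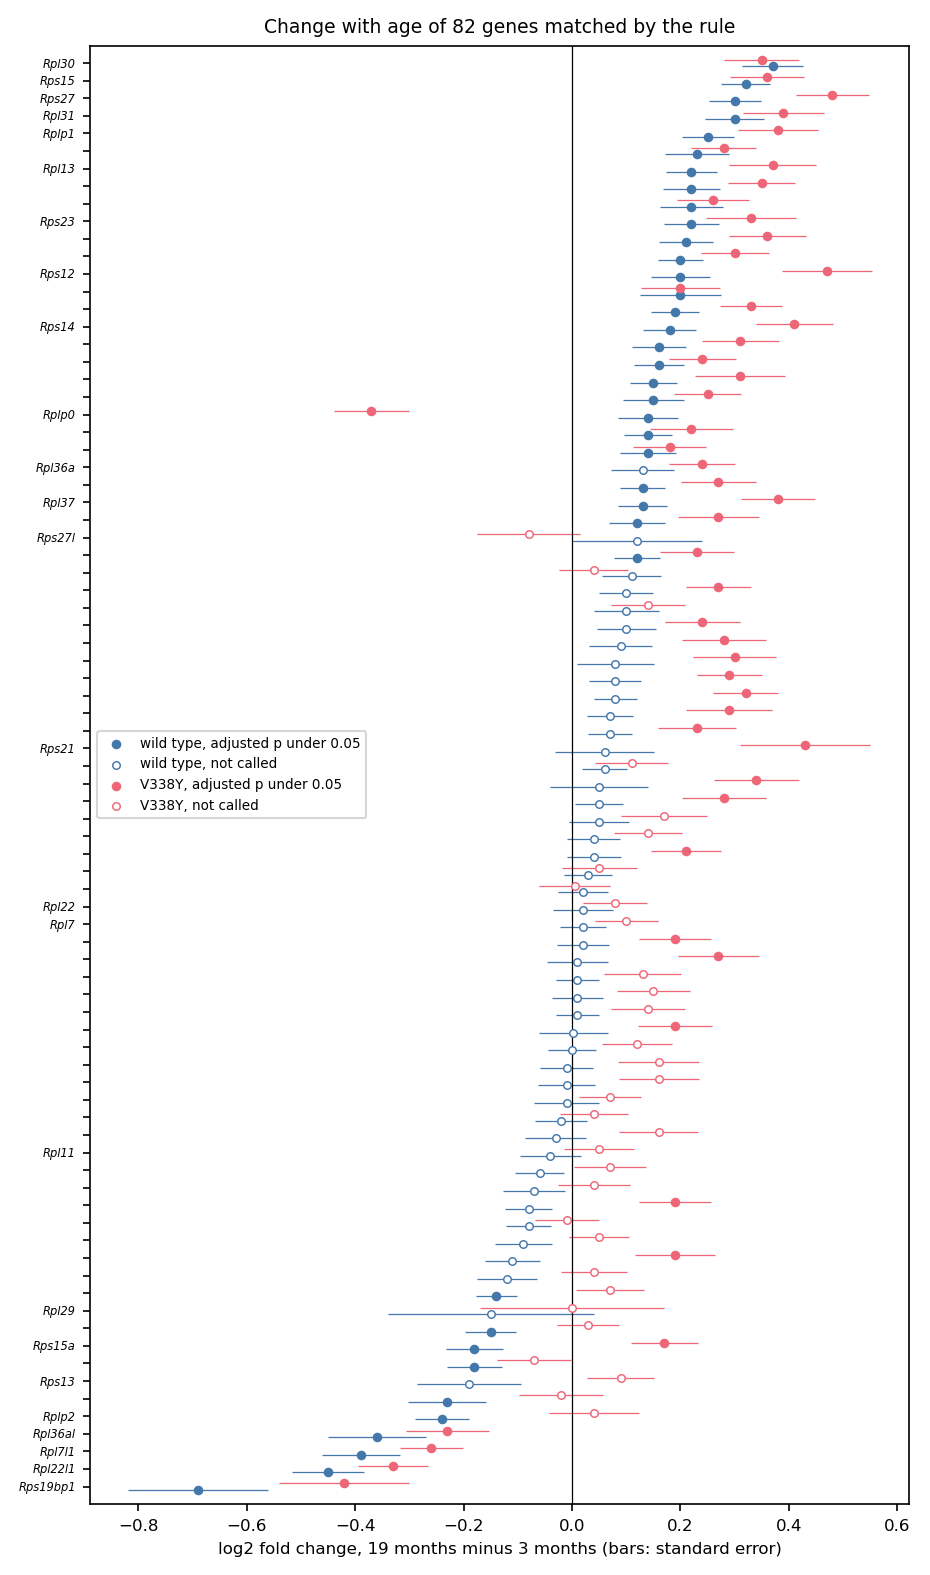
Log2 fold change from 3 to 19 months (horizontal axis; bars are standard errors) of the 82 tested members, ordered by the wild-type value, in wild-type (blue) and V338Y mice (red); filled points have an adjusted p under 0.05 in edgeR's quasi-likelihood test, and names are given for some genes described in the text. Most members lie right of 0 in V338Y mice, *Rplp0* lies on opposite sides in the genotypes, and *Rps19bp1*, *Rpl22l1*, *Rpl7l1* and *Rpl36al* lie lowest in wild-type mice.

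Of the members, 26 were called higher with age in both genotypes, among them *Rpl30*, *Rpl31*, *Rps15*, *Rps27* and *Rplp1*. *Rps19bp1* and the paralogs *Rpl22l1*, *Rpl7l1* and *Rpl36al* were called lower in both. Higher in V338Y mice alone were 19 members, and 6 were called lower in wild-type mice alone. In neither genotype were 27 members called, among them *Rpl4*, *Rpl5*, *Rpl7*, *Rpl8* and *Rps9*. The shares of all genes in these joint classes were not taken. With age, 62.8% of all genes tested were called in wild-type and 48.8% in V338Y mice. These counts therefore describe the members only. The genotypes were tested in separate mice, and whether their changes differ is the question of the interaction below.

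In 3 of the paralog pairs, *Rpl22l1*, *Rpl36al* and *Rpl7l1* were called lower with age in both genotypes, for *Rpl36al* in V338Y mice not under every alternative. *Rpl22l1* (chr3:28805436-28807424) encodes a protein closely related to that of *Rpl22*, an RNA-binding protein of the large subunit that cells can live without. *Rpl22l1* was at 41.1, 40.4, 40.4 and 39.4 CPM in 3-month-old and 28.9, 29.8, 27.1 and 31.6 CPM in 19-month-old wild-type mice. It was at 36.5, 37.8, 34.4 and 36.6 CPM and at 26.6, 30.1, 30.7 and 28.2 CPM in V338Y mice. Old and young mice did not overlap in either genotype, and the log2 fold changes were -0.45 (SE 0.067, edgeR adjusted p = 7.5e-07) and -0.33 (SE 0.065, edgeR adjusted p = 0.00099). *Rpl22* itself had log2 fold changes of 0.02 and 0.08, with adjusted p-values of 0.782 and 0.274 (edgeR), and was between 67.1 and 86.9 CPM in all mice.

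*Rpl36al* and *Rpl7l1* had the same pattern. *Rpl36al*, a relative of the X-linked *Rpl36a*, was between 17.3 and 18.8 CPM in 3-month-old and between 12.7 and 15.2 CPM in 19-month-old wild-type mice, and *Rpl36a* between 58 and 64.6 and between 60.9 and 72.3 CPM. *Rpl36al* had log2 fold changes of -0.36 and -0.23, whereas those of *Rpl36a* were 0.13 (adjusted p = 0.0605, edgeR) and 0.24 (adjusted p = 0.00563, edgeR). The call of *Rpl36al* in V338Y mice was lost under 6 alternatives. These were DESeq2, at -0.21, removal of length and GC trends, at -0.16, and leaving out mouse 13, 16, 17 or 20. *Rpl7l1* went from between 44.1 and 48.3 CPM to between 31.8 and 41.1 CPM in wild-type mice, with changes of -0.39 and -0.26, while *Rpl7*, at 170 to 214 CPM, had 0.02 and 0.10. In the remaining pairs, *Rps27* rose and *Rps27l*, at 8.1 to 10.6 CPM, had 0.12 and -0.08 with adjusted p-values of 0.385 and 0.517 (edgeR). *Rpl10* and *Rpl39*, whose relatives were at or near 0 counts, rose by 0.28 and 0.30 in V338Y mice and had 0.05 and 0.08 in wild-type mice. *Rps4x* rose by 0.13 and 0.27, while *Rps4l*, annotated as a transcribed pseudogene and so no member, fell by 0.62 and 0.64. These pairs were chosen for their relation and with earlier results known, and the difference within a pair was not tested.

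These pairs differ in sequence, unlike *Rps27* and *Rps27rt*. Over the aligned coding sequence, *Rpl22* and *Rpl22l1* were identical at 70.2% of bases, *Rpl7* and *Rpl7l1* at 57.7%, *Rps27* and *Rps27l* at 76.1% and *Rpl36a* and *Rpl36al* at 87.9%. The closest of these pairs is shown over the 30 coding bases, 151 to 180, at which it differs most, with differing bases in capitals (GRCm38, GENCODE M21 transcripts).
Rpl36a (chrX:134586552-134587453, plus strand, across an intron): cagacTaagccTatTttCcgCaaAaaggcT
Rpl36al (chr12:69182957-69182986, minus strand): cagacAaagccAatCttTcgAaaGaaggcC
In this stretch, the most different one, 7 of 30 bases differ. Over the whole coding sequence 39 of 321 bases differ. Of the read-length windows, 82.4% in *Rpl36a* and 56.4% in *Rpl36al* also occurred in a transcript of another gene, not necessarily the partner.

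**Figure D3:**
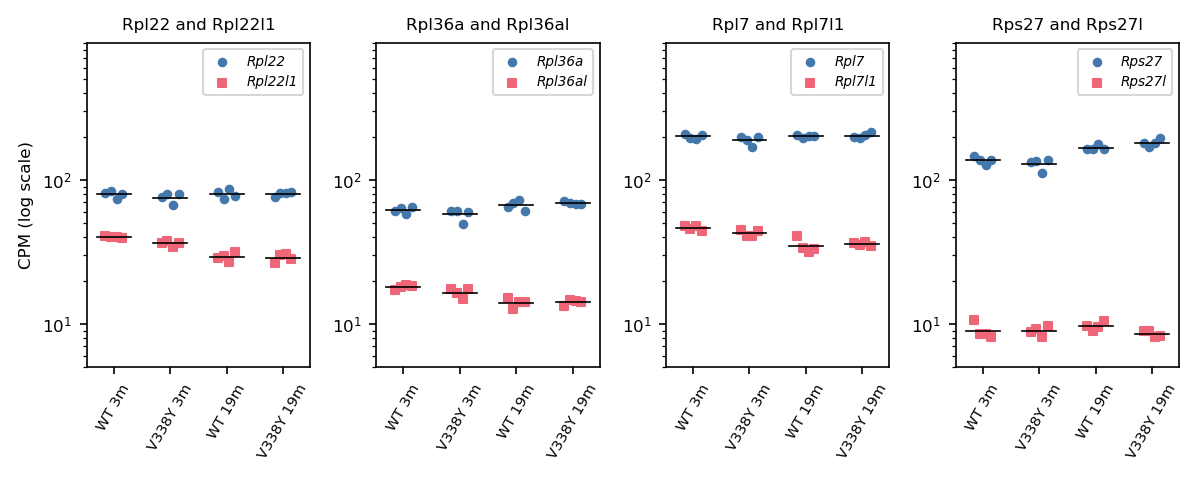
CPM of 4 paralog pairs in each mouse (vertical log axis), by group (horizontal axis: WT, wild-type; 3m and 19m, months of age); circles are the first gene and squares the second gene of each pair, and lines are group means of 4 mice. *Rpl22l1*, *Rpl36al* and *Rpl7l1* lie lower in the 19-month-old groups than in the 3-month-old groups, with *Rpl22l1* going from 39.4 to 41.1 CPM to 27.1 to 31.6 CPM in wild-type mice.

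Between the genotypes at 3 months, no member passed the threshold. Of the 82, 0 were called by edgeR's quasi-likelihood test and 0 by DESeq2, where 0.0616% of all 16241 genes were called, 0.0185% higher and 0.0431% lower, and 10 members had an unadjusted p under 0.05 (12.2%, against 5.02% of all genes). The members nevertheless leaned one way. For 76 of them the V338Y mean was lower, with a median log2 fold change of -0.08 against 0.005 for all genes, and quartiles of -0.12 and -0.05. The groups did not overlap for 0 members upward and 4 downward, *Rpl13a*, *Rpl22l1*, *Rpl24* and *Rps6*, against 1.37% and 1.86% of all genes. Much of this came with V338Y mouse 15, without which the median was -0.03. The largest differences were -0.20 in *Rps15a* and *Rpl13a*, and neither passed (adjusted p = 0.926 and 0.848, edgeR).

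At 19 months the members leaned the other way. In V338Y mice 70 of the 82 were higher than in wild-type mice, with a median log2 fold change of 0.06 and quartiles of 0.02 and 0.11, against -0.001 for all genes. Of these, 4 were called higher and 1 lower (the same test and threshold), where 3.12% of all 16420 genes were called, 1.19% higher and 1.92% lower. The groups did not overlap for 9 members upward and 1 downward, against 4.49% and 4.83% of all genes. *Rps14* was at 185, 193, 195 and 186 CPM in wild-type and 203, 202, 217 and 239 CPM in V338Y mice. *Rpl37*, a small protein of the large subunit, was at 131, 133, 129 and 133 CPM and at 143, 139, 153 and 155 CPM. Each V338Y mouse was above each wild-type mouse for both genes, with log2 fold changes of 0.18 (SE 0.045, edgeR adjusted p = 0.0229) and 0.17 (SE 0.041, edgeR adjusted p = 0.017).

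*Rps15a* was also called higher, with a log2 fold change of 0.16 (SE 0.044, edgeR adjusted p = 0.0419). It was at 115, 115, 118 and 115 CPM in wild-type and at 123, 120, 133 and 138 CPM in V338Y mice, with no overlap. V338Y mice 19 and 20 were the highest for *Rps14*, *Rpl37* and *Rps15a*. The calls rest on few mice. The total of 5 called members became 1, *Rplp0*, without V338Y mouse 19 or mouse 20 and in the fit of all 16 libraries, 2 without wild-type mouse 13 or mouse 15, 3 without wild-type mouse 12 and 9 without V338Y mouse 18. On chromosome 2, where the mutated *Mrps5* lies, the members *Rpl7a*, *Rpl12*, *Rpl35* and *Rps21* had log2 fold changes of -0.05, 0.08, -0.03 and 0.23, and none was called. *Mrps5* itself had a log2 fold change between the genotypes of 0.0033 at 3 months and -0.01 at 19 months.

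**Figure D4:**
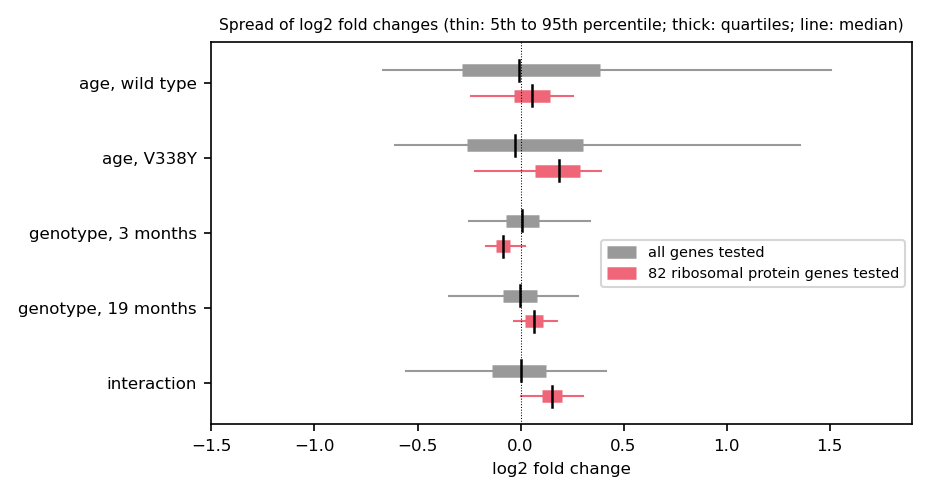
Log2 fold changes (horizontal axis) in each of 5 comparisons for all genes tested (grey) and the 82 tested members (red): thin lines run from the 5th to the 95th percentile, thick bars between the quartiles, and the black line is the median. The medians of the members are 0.05 and 0.19 with age in wild-type and V338Y mice, -0.08 and 0.06 between the genotypes at 3 and 19 months and 0.16 for the interaction, on a scale on which the members spread less than all genes.

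The change with age was compared between the genotypes as an interaction over all 16 mice. For 79 of the 82 members the estimate was positive, a larger log2 change in V338Y mice, with a median of 0.16 against 0.002 for all 16831 genes. Of the members, 0 were called by edgeR's quasi-likelihood test, where 0.0535% of all genes were, all of them lower, and 2 by DESeq2. An unadjusted p under 0.05 was seen for 27 of the 82 (32.9%, against 10.2% of all genes). The median fell to 0.09 without 3-month-old V338Y mouse 15. With no filter on counts 2 members were called, with the likelihood-ratio test and with length and GC trends removed 1 each, and without 3-month-old wild-type mouse 11 or V338Y mouse 14 or 15 again 1 each. The members so called were *Rplp0* or *Rps15a*, the pair called in opposite directions with age. Of these age calls, that of *Rps15a* in V338Y mice was lost under 7 alternatives and that of *Rplp0* in wild-type mice under 6. *Rps15a* had -0.18 with age in wild-type and 0.17 in V338Y mice, with overlapping ages in both, and an interaction of 0.37 (SE 0.084, edgeR adjusted p = 0.124).

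*Rplp0* (chr5:115559467-115563727), the scaffold of the P stalk and a gene often used as a reference in RT-qPCR, stood out among the members. It was at 155, 127, 156 and 157 CPM in young wild-type mice and 164, 165, 129 and 147 CPM in young V338Y mice. In the old mice it was at 163, 163, 167 and 155 CPM in wild-type and at 117, 114, 116 and 123 CPM in V338Y mice. The old V338Y mice were lower than all other mice. Between the genotypes at 19 months the log2 fold change was -0.47 (SE 0.04, edgeR adjusted p = 1.2e-09), a 1.38-fold lower level. With age it was 0.14 in wild-type mice (adjusted p = 0.0291, edgeR), whose groups overlapped and for which it was 0.07 and not called without 3-month-old mouse 10, and -0.37 in V338Y mice (adjusted p = 0.0008, edgeR), and the interaction was -0.49 (SE 0.1, edgeR adjusted p = 0.0638).

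The copies of *Rplp0* moved the opposite way in the same mice. *Gm8730*, a processed pseudogene on chromosome 8 (chr8:102864845-102865798), was at 3.55, 3.15, 2.6 and 4.4 CPM in 19-month-old wild-type and 18.7, 19.7, 20.6 and 18.4 CPM in V338Y mice of the same age. Among the young mice it was at 14 CPM in wild-type mouse 10 and at most 0.281 CPM in each of the other 7 mice. Wild-type mouse 10 is also the mouse with the lowest *Rplp0* of its group, at 127 CPM. A second copy, *Gm9625* (chr13:67810246-67811200), was at 5.43 CPM in that mouse, at most 0.83 CPM in the others at 3 months, between 1.08 and 1.35 CPM in old wild-type and between 4.9 and 5.49 CPM in old V338Y mice. The coding sequence of *Rplp0* and *Gm8730* was identical at 98.7% of 954 bases, and the stretch with the most differences, coding bases 364 to 393, is shown with the differing bases in capitals (GRCm38).
Rplp0 (chr5:115561144-115561173, plus strand): actgtgccagctcagaacactggtctAggA
Gm8730 (chr8:102865406-102865435, minus strand): actgtgccagctcagaacactggtctGggG
Only 2 of these 30 bases differ, and in all 12 of 954.

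Adding the counts of the 4 copies to *Rplp0* took away part of the difference. The sum was 168, 167, 171 and 161 CPM in 19-month-old wild-type and 141, 139, 143 and 147 CPM in 19-month-old V338Y mice, still with no overlap. In the fit with copies added, which was chosen after seeing the data, the log2 fold change between the genotypes at 19 months was -0.23 (SE 0.038, edgeR adjusted p = 0.00022). The change with age in V338Y mice was then -0.10 and no longer passed (adjusted p = 0.23, edgeR), and the interaction was -0.21 (adjusted p = 0.406, edgeR). Whether reads of one gene were counted for the other was not tested.

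*Rps13* and *Rpl11*, proteins of the small and the large subunit, had low values in single mice in which a copy was high. *Rps13* (chr7:116331505-116334195) was at 76.2, 84.6, 60.4 and 86.4 CPM in 3-month-old wild-type mice, lowest in mouse 11. Its copy *Rps13-ps1* (chr8:87047689-87048226) was at 13.5 CPM in mouse 11 and at 0 in the other 3. In 3-month-old V338Y mice 13, 14 and 16 *Rps13-ps1* was at 11.9, 15.6 and 15.7 CPM and in mouse 15 at 0. At 19 months every mouse had some, between 4.66 and 8.12 CPM in wild-type and between 1.88 and 3.33 CPM in V338Y mice. The coding sequences differ at 2 of 456 bases, both within coding bases 400 to 429, in capitals here.
Rps13 (chr7:116331577-116332401, minus strand, across an intron): gtgctcccaccTaattggaaatatgagtcA
Rps13-ps1 (chr8:87048119-87048148, plus strand): gtgctcccaccCaattggaaatatgagtcG
With copies added, the SD of *Rps13* went from 11.8 to 6.23 CPM over the 3-month-old wild-type mice, from 4.45 to 5.51 CPM over the 3-month-old V338Y mice, from 1.76 to 2.84 CPM over the old wild-type mice and from 1.99 to 1.53 CPM over the old V338Y mice. For *Rpl11* the SD over the young wild-type mice went from 10.7 to 1.42 CPM, and wild-type mouse 9, the lowest at 97.8 CPM, was the one with 19.2 CPM of the copy *Gm10036*, which was at most 0.06 CPM in the other 7 mice of that age. The log2 fold change of *Rps13* between the genotypes at 3 months was -0.15 as deposited and 0.0016 with copies added, and neither passed (adjusted p = 0.926 and 0.999, edgeR).

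**Figure D5:**
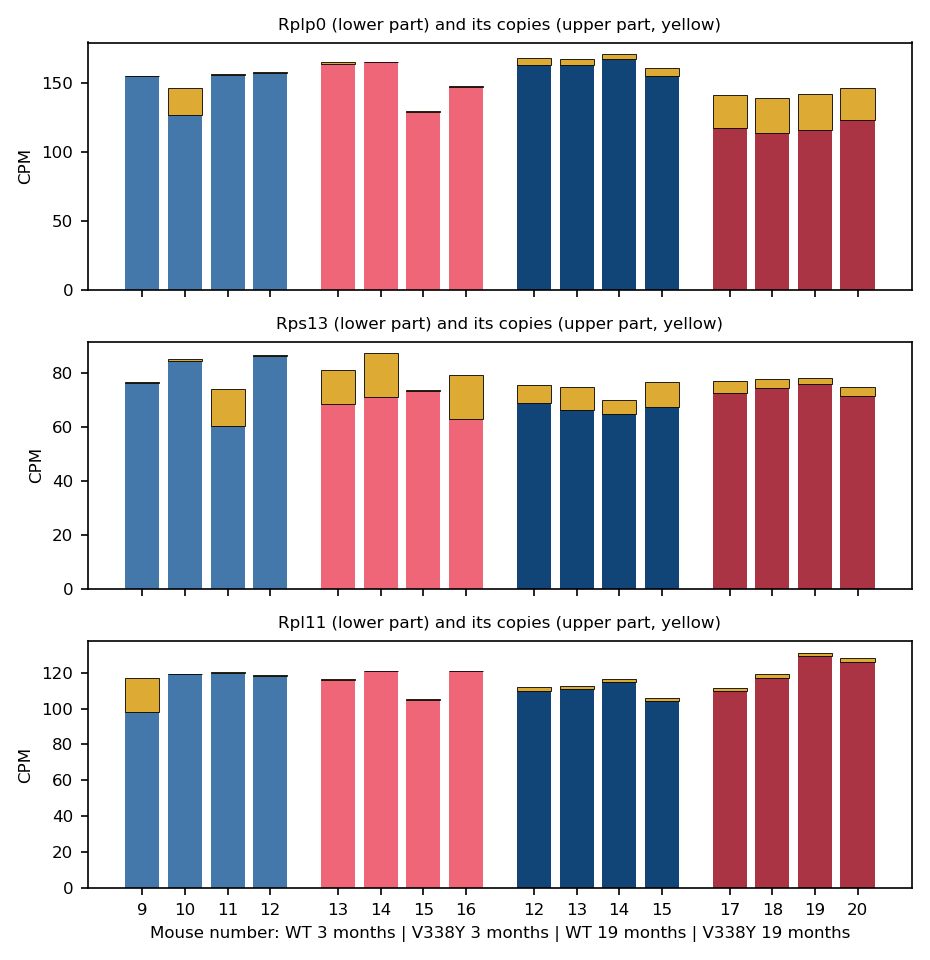
CPM (vertical axes, from 0) of *Rplp0*, *Rps13* and *Rpl11* (coloured by group) with the summed CPM of their copies stacked on top (yellow), for each of the 16 mice, whose numbers stand below in the order of the 4 groups. The copies of *Rplp0* are at 23.5 to 26.2 CPM in the 19-month-old V338Y mice and at 19.6 CPM in wild-type mouse 10, the mice with the lowest *Rplp0*. The 3-month-old V338Y mouse 15 is close to them in *Rplp0*, at 129 CPM, with copies at 0.985 CPM.

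Ribosomal proteins whose symbols lie outside the rule were measured too. *Fau* encodes a ribosomal protein fused to a ubiquitin-like protein, and *Rack1* encodes a scaffold on the small subunit. With age in V338Y mice *Fau* rose by 0.22 and *Rack1* by 0.15, and in wild-type mice *Rack1* rose by 0.14 while *Fau* had 0.06 (adjusted p = 0.387, edgeR). The ribosome of the mitochondrion went the other way. Of 76 tested mitochondrial ribosomal protein genes, 0 rose and 67 fell in wild-type and 64 fell in V338Y mice, with medians of -0.46 and -0.37, led by *Mrpl43* at -0.82 and *Mrps12* at -0.76 in wild-type and by *Mrpl46* at -0.64 in V338Y mice. *Mrps5* fell with age by 0.37 and 0.39.

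The machinery around the ribosome was also measured with lists of genes, whose counts stand against the 31.4% of all genes called higher and 31.5% called lower in wild-type and the 23.1% and 25.7% in V338Y mice. Of 18 translation factors and other genes known to carry the oligopyrimidine tract, 2 rose and 10 fell in wild-type and 0 rose and 6 fell in V338Y mice. The falls were led by *Hnrnpa1* at -0.60 and -0.43 and *Npm1* at -0.49 and -0.33, and *Pabpc1*, the poly(A)-binding protein, rose by 0.65 in wild-type mice. Of 49 genes of ribosome assembly, 3 rose and 25 fell in wild-type, led by the methyltransferase gene *Fbl* at -0.84, and 2 rose and 24 fell in V338Y mice, led by *Rpf2* at -0.69. Of 13 tested genes of the mTORC1 pathway, 6 rose and 5 fell in wild-type and 4 rose and 3 fell in V338Y mice. *Eif4ebp2*, a repressor of cap-dependent translation, rose by 1.45 and 0.64, and *Rheb*, the activator of mTORC1, fell by 0.52 and 0.44. Between the genotypes, 0 genes of these lists were called at 3 months and 1 at 19 months, the assembly factor *Rrs1*, at 0.33 (adjusted p = 0.0334, edgeR).

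Markers of several cell types moved with age beside the members. Of the endothelial markers 7 of 7 rose in both genotypes, from a summed level between 219 and 236 CPM to between 945 and 1107 CPM, and of the microglia markers 8 of 8, from between 168 and 243 to between 399 and 456 CPM. The cerebellum markers fell, 9 of 9 in wild-type and 8 of 9 in V338Y mice, and were between 227 and 1827 CPM at 3 months and between 163 and 188 CPM at 19 months. Without V338Y mouse 14, the young mouse low in these markers, 48 members were higher and 5 lower with age in V338Y mice, with a median of 0.23, and the medians were -0.11 between the genotypes at 3 months and 0.19 for the interaction. Astrocyte markers rose for 7 of 8 in both genotypes, from a sum between 4022 and 4729 to between 7291 and 8772 CPM, and oligodendrocyte markers for 5 of 8, from between 3526 and 4445 to between 6042 and 7076 CPM. Meninges markers rose for 7 of 7, from between 86.3 and 124 to between 259 and 324 CPM, and blood markers for 5 of 5, from between 124 and 256 to between 384 and 900 CPM. Of the 10 neuron markers 7 fell in wild-type and 6 in V338Y mice. Between the genotypes at 19 months, 0 of 7 endothelial, 2 of 8 microglia and 1 of 10 neuron markers were called, where 3.12% of all genes were. Of the 7 meninges markers, *Col1a1* was called higher and *Slc6a13* and *Dcn* lower. The astrocyte marker *Slc1a3* was called lower and the oligodendrocyte marker *Cnp* higher, and 0 of 5 blood markers were called. Choroid plexus markers at 19 months summed to between 220 and 977 CPM in wild-type and between 149 and 2278 CPM in V338Y mice, with 0 of 6 called. Each of the 6 was higher in V338Y mice 17 and 18 than in mice 19 and 20. *Ttr* was at 2117 and 2137 CPM in mice 17 and 18 and at 127 and 221 CPM in mice 19 and 20. Mice 19 and 20 were also those with the highest summed level of the members. The part of these cell types in the changes of the ribosomal protein genes was not tested.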

How the data were processed

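The deposited table held estimated counts per gene, which the authors made from single-end reads, and its values of at least 10000, 1495 in all, every one ended in 0, so large values were rounded. The submitters' processing notes name STAR 2.4.2a, bcl2fastq 1.8.4, featureCounts and GRCm38, while the methods of the study name RSEM and an older build. Which of them made the table is not given in the sources used here. Values were rounded to whole numbers before testing. Identifiers were named with GENCODE M21, which held 37693 of the 39179.

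Members and gene lists were chosen with earlier results of these data known. Groups came from the sample labels. In each comparison of 4 against 4 mice, genes reaching 10 counts in 2 or more mice of a group were tested with edgeR 4.0.16 in R 4.3.3 (TMM scaling, robust quasi-likelihood test, Benjamini-Hochberg adjustment over all genes tested, threshold 0.05). The interaction used all 16 libraries. Copies were genes that shared at least 10% of the 50-base windows of a member's coding sequence. Those that also overlapped the member in the genome were labelled overlapping genes. The text names the paralog pairs, the 8 largest called rises and falls in each comparison, members called in the interaction or in opposite directions with age, the 3 highest and lowest levels, members outside the ribosome, *Fau*, *Rack1*, *Mrps5* and up to 3 called genes of each other list. The copies and *Rpl11*, *Rpl13a*, *Rpl21*, *Rpl24*, *Rpl29*, *Rps6*, *Rps13*, the chromosome 2 members and the examples of members not called with age were named after their values were seen. Some genes that the rule names are not reported here. On simulated counts for the change with age in wild-type mice (16101 genes) the test recovered 100% of log2 changes of 1 and 91% of those of 0.5. For the interaction (16831 genes) it recovered 100% and 69%. Recovery of log2 changes smaller than 0.5 was not tested. The members' medians were smaller, at 0.05 with age in wild-type mice and 0.16 for the interaction. The alternatives were DESeq2 1.42.0, a likelihood-ratio test, other scalings and filters, removal of length and GC trends, 1 fit of all libraries, each mouse left out, and copies added, the last chosen after seeing the data.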

Additional observations from a re-analysis of the deposited data

Results flagged for a closer look

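Among the values per mouse of the named members, 12 of 136 groups (8.82%) held a mouse whose gap to its nearest neighbour was large against the range of its 4 mice. Chance gives this in about 1 in 20 independent groups. These groups are not independent, as V338Y mouse 15 recurs among them. *Rpl11* was also named after its values were seen, so the shares cannot be compared as a test. In 3-month-old V338Y mice it was mouse 15, the lowest, for *Rpl13* at 107 CPM, *Rpl36a* at 49.9 CPM, *Rpl37* at 95.8 CPM, *Rps19bp1* at 8.37 CPM, *Rps23* at 77.7 CPM and *Rps27* at 112 CPM. In 3-month-old wild-type mice it was mouse 9 for *Rpl11* at 97.8 CPM, mouse 10 for *Rplp0* at 127 CPM and mouse 11 for *Rplp1* at 258 CPM, each the lowest. In 19-month-old wild-type mice it was mouse 12 for *Rpl30*, the highest at 120 CPM, mouse 14 for *Rps15a*, the highest at 118 CPM, and mouse 15 for *Rplp2*, the lowest at 88.3 CPM.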

How the results depend on the processing

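For the change with age in wild-type mice, the median log2 fold change of the members was -0.04 on library size only, where that of all genes was -0.097, and 0.15 with length and GC trends removed, where 58 members were called. The 5 members called between the genotypes at 19 months became 9 on library size only, 10 with no filter on counts, 2 with length and GC trends removed and 1 in the fit of all 16 libraries. Leaving out each mouse gave between 1 (without V338Y mouse 19 or 20) and 9 (without V338Y mouse 18), with 2 without wild-type mouse 13 or 15 and 3 without wild-type mouse 12. The 0 interaction calls became 2 with no filter and with DESeq2 and 1 with the likelihood-ratio test and with length and GC trends removed. Leaving out each mouse gave between 0 and 1 (without 3-month-old wild-type mouse 11 or V338Y mouse 14 or 15). The summed level without paralog pairs was 0.915% (wild-type) and 0.858% (V338Y) at 3 months and 0.955% and 0.996% at 19 months, and with copies added it was 1.11% in old wild-type mice. The causes were not tested, beyond the smaller sets of genes or mice. No called member among those followed singly, the ones chosen by the naming rule, changed direction under the alternatives run. No paired analysis was possible because the mouse numbers that recur between the groups belong to different animals, and no groups of 1 age share a number.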
